A study of Homo sapiens with 44 samples.

Results

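Enzalutamide and ARN-509 (apalutamide) were compared at the same oral dose in castration-resistant xenografts of VCaP. This cell line was established from human prostate cancer and has a fusion of TMPRSS2 with ERG. The comparison rests on 28 libraries of the 44 in the series: 13 of the 14 tumors from mice given enzalutamide and all 15 from mice given ARN-509. The libraries were chosen by the arm named in their labels, and enzalutamide tumor 4 was set aside because its library held 80142 counts. Another 15 tumors from mice given vehicle supplied the baseline. All 3 arms shared the host, the athymic nude strain HSD:Athymic Nude-Foxn1nu, which lacks T cells, and all hosts had been castrated. Treatment began after serum PSA had climbed back to where it stood before castration. Both drugs were dosed once a day by gavage, over 4 weeks, at 20 mg/kg/day. All tumors derive from 1 cell line, so the spread between libraries is a spread between tumors and hosts and not between patients.

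Androgen receptor is a nuclear receptor that enters the nucleus on binding androgen and switches on genes such as KLK3, which encodes PSA. Prostate tumors that regrow after castration usually keep this receptor active. Enzalutamide and ARN-509 both occupy its ligand-binding pocket, limit its entry into the nucleus and its binding to DNA, and share a diarylthiohydantoin core. ARN-509 carries a spiro-cyclobutane ring where enzalutamide has a pair of methyl groups, and a pyridine ring in place of a benzene ring. The count of reads from a transcript depends on its amount and, in addition, on its base composition and length, since steps of library preparation and the state of the RNA recover GC-rich or long transcripts unevenly. Differences between arms were therefore measured with the counts as scaled, and again after a trend with transcript GC content and length, fitted in each library, had been removed. That step also removes any effect of a drug that follows GC content or length. Such an effect and one of library preparation cannot be told apart in this design, so a gene lost after removal is not thereby an artifact.

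The libraries compared held 4723513 to 16903189 counts with enzalutamide, 3377450 to 30125004 with ARN-509 and 4187464 to 25849380 with vehicle. Markers of the tumor cells were abundant in every arm. The median level of KLK2, a kallikrein of the prostate, was 4849.9 CPM (a count scaled to the size of its library) with vehicle, 5180.3 with enzalutamide and 4247 with ARN-509. Counts of human genes that mark other cell types were low but not all absent. Fibroblasts, vessels and leukocytes of a xenograft come from the mouse host, so these counts do not measure how many such cells a tumor held. Of the marker lists, 3 of 10 fibroblast genes, 0 of 5 endothelial genes and 1 of 6 leukocyte and macrophage genes were detected well enough to be tested. DCN, THY1 and FAP of fibroblasts, CDH5 and KDR of endothelium and PTPRC and CD163 of leukocytes had a median of 0 CPM in each arm. ACTA2, a smooth muscle actin, had medians of 12.3, 13.3 and 11.4 CPM with vehicle, enzalutamide and ARN-509, COL1A1, a fibroblast collagen, 3.27, 3.70 and 4.90, FBN1, a matrix fibrillin, 5.10, 2.41 and 2.42, and CD68, a macrophage protein, 5.25, 6.38 and 4.88. VWF, an endothelial protein, stood at 3.10 with vehicle against 0.360 and 0.186. A single tumor stood apart for 1 transcript. Enzalutamide tumor 2 held 617 CPM of ALB, which encodes serum albumin, against 2.62 to 11.1 CPM in the other 42 libraries, while its level of APOA1, another liver gene, was 0.159 CPM. These are whole-tumor RNA samples, in which fewer cells of a type and less RNA per cell cannot be told apart.

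With the counts as scaled, 3623 of 13520 tested genes (26.8%) passed between the drugs at an adjusted p of 0.05, of which 1647 were higher and 1976 lower with enzalutamide (edgeR quasi-likelihood test, Benjamini-Hochberg adjustment over all tested genes, as for every gene value given here). These differences were small. Their median size was 0.30 on the log2 scale, and 11 genes differed by 2-fold or more, 4 higher and 7 lower. The 95% interval stayed inside 2-fold for 97.9% of the tested genes and inside 1.5-fold for 83.5%. The genes higher with enzalutamide were GC-rich and short, with a median GC content of 57.5% and a median transcript length of 2146 bases. Those lower with enzalutamide were GC-poor and long, with medians of 40.2% and 5764 bases. Over all genes with both values these medians were 48.9% and 3385 bases.

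A pair of genes gives examples at low and high GC content. They were picked for a small p and do not stand for the typical size of the trend. Of the 10 genes with the smallest p between the drugs before removal, RASSF8, a Ras-association domain gene, had the lowest transcript GC content, and AKT1S1, which encodes the mTORC1 inhibitor PRAS40, the highest. The RASSF8 transcript used lies on the plus strand at chr12:25959058-26072869 (GRCh38), is 5510 bases long and has a GC content of 36.3%. The AKT1S1 transcript has a GC content of 60.4%. The first 120 coding bases of RASSF8, from the start codon in exonic sequence of GENCODE v29, are shown 5′ to 3′ with G and C in capitals.
RASSF8: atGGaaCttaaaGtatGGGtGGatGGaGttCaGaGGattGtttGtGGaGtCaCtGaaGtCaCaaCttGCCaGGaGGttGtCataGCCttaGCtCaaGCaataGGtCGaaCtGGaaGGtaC
In this stretch 55 of the 120 bases are G or C (45.8%), which is above the share of the whole transcript and near the median of all genes, so the coding start itself is not GC-poor. The TMM-scaled level of RASSF8 ran from 8.39 to 16.4 (median 11.8) CPM with enzalutamide and from 15.3 to 33.9 (median 18.5) CPM with ARN-509, against 3.73 to 12.9 (median 7.81) CPM with vehicle. That of AKT1S1 ran from 81.3 to 110.3 (median 93.0) CPM with enzalutamide, 66.4 to 90.2 (median 72.2) CPM with ARN-509 and 73.7 to 123 (median 85.0) CPM with vehicle. The drug arms overlapped for both genes, but nearly all ARN-509 tumors were high for RASSF8 and low for AKT1S1. Removal of the trend shrank both differences. RASSF8 went from -0.76 to -0.45 on the log2 scale (adjusted p = 0.0366), and AKT1S1 from 0.35 to 0.21 (adjusted p = 0.0111). The RASSF8 value failed in 11 of the 43 fits that each left out 1 library, with an adjusted p of up to 0.0636 without ARN-509 tumor 11.

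The arms also differed in this trend when each library was taken as 1 value. The slope of a library's centred log2 CPM on GC content ran from -0.04 to 0.35 per 10 percentage points with enzalutamide (0.07 ± 0.11, SD, n = 13) and from -0.33 to 0.10 with ARN-509 (-0.09 ± 0.11, SD, n = 15), a difference in means of 0.16 (two-sided permutation test with 100000 resamples, p = 0.00037). All 13 enzalutamide tumors lay above the ARN-509 median, and 2 of 15 ARN-509 tumors above the enzalutamide median, so the arms overlapped but were shifted. Vehicle tumors spread over both, from -0.14 to 0.35. The slope with transcript length ran the other way, with means of -0.05 ± 0.07 and 0.06 ± 0.07 per doubling (SD; difference -0.10, p = 0.00085 in the same permutation test). The GC slope was also set against log10 of the total count in 4 relations, and none passed after adjustment over the 4. Within the enzalutamide arm Pearson's r was -0.58 (permutation p = 0.0287, 0.115 adjusted). Spearman's rho was -0.53 (permutation p = 0.065, 0.26 adjusted), and r was -0.55 without the 2 libraries farthest from the median depth. Within the vehicle arm r was -0.22 (permutation p = 0.424, 0.79 adjusted), and over both drug arms -0.03 (permutation p = 0.867, 0.867 adjusted). Within the ARN-509 arm r was 0.15 (permutation p = 0.593, 0.79 adjusted; rho 0.22, permutation p = 0.426, 0.569 adjusted; r 0.19 without the 2 farthest). In libraries under 10000000 counts the mean slopes of 7 enzalutamide and 9 ARN-509 tumors differed by 0.23, and in those of at least 10000000, 6 of each, by 0.08. The part of depth in the difference was not tested.

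**Figure D1:**
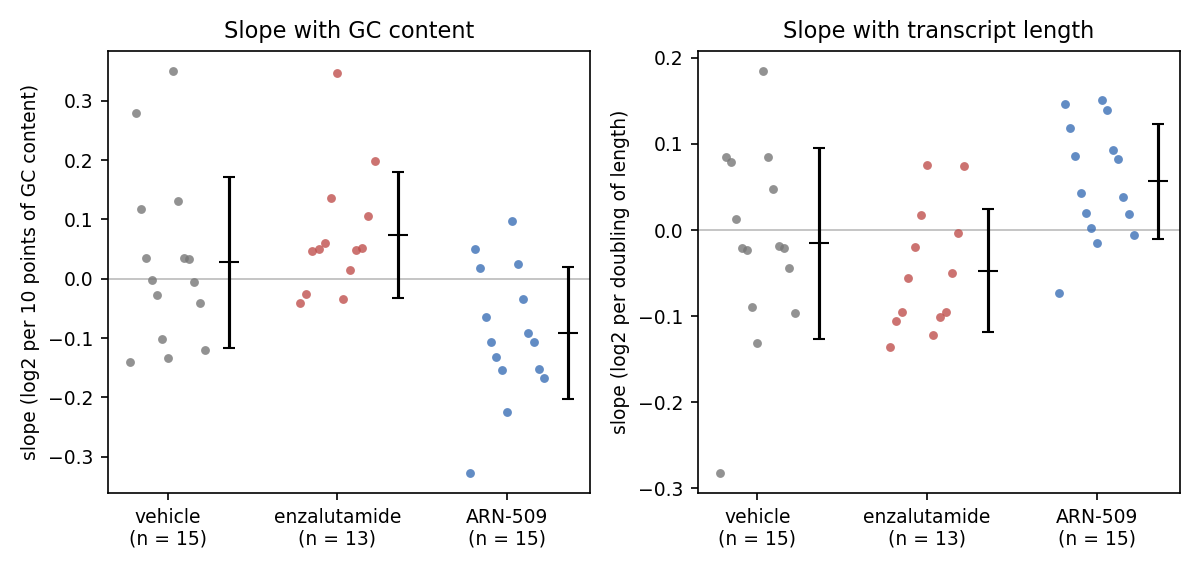
Slope of each library's centred log2 CPM on transcript GC content (left, log2 units per 10 percentage points) and on transcript length (right, log2 units per doubling), 1 point per tumor, with the mean and SD of each arm as a bar. Enzalutamide tumors lay mostly above 0 for GC content and ARN-509 tumors mostly below, with vehicle tumors spread over both.

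After each library's trend had been removed, 598 of 12986 genes (4.6%) differed between the drugs, 282 higher and 316 lower with enzalutamide. The rank correlation across genes of the difference with GC content went from 0.62 to 0.01 and that with length from -0.54 to -0.03; these are descriptions, and genes are not independent replicates. Of the 3569 genes with both values that passed before, 437 passed after, which is 12.2% of the former and 73.1% of the genes that passed after, and 434 of them kept their direction. The 10% of genes lowest in GC content held 0 higher and 679 lower genes before, and 48 and 73 after. The 10% highest held 303 and 0 before, and 13 and 5 after. The split by GC content was thus smaller but not gone: lower genes still outnumbered higher ones in the lowest group, and the reverse held in the highest. Both directions were still found more among long and GC-poor transcripts. The median length was 5012 bases for genes higher and 5195.5 bases for genes lower, and the median GC content 44.5% and 42.1%. With the trend removed, 7 genes differed by at least 2-fold and 39 by at least 1.5-fold (8 higher, 31 lower), and the 95% interval lay within 2-fold for 98.8% of genes and within 1.5-fold for 90.4%.

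**Figure D2:**
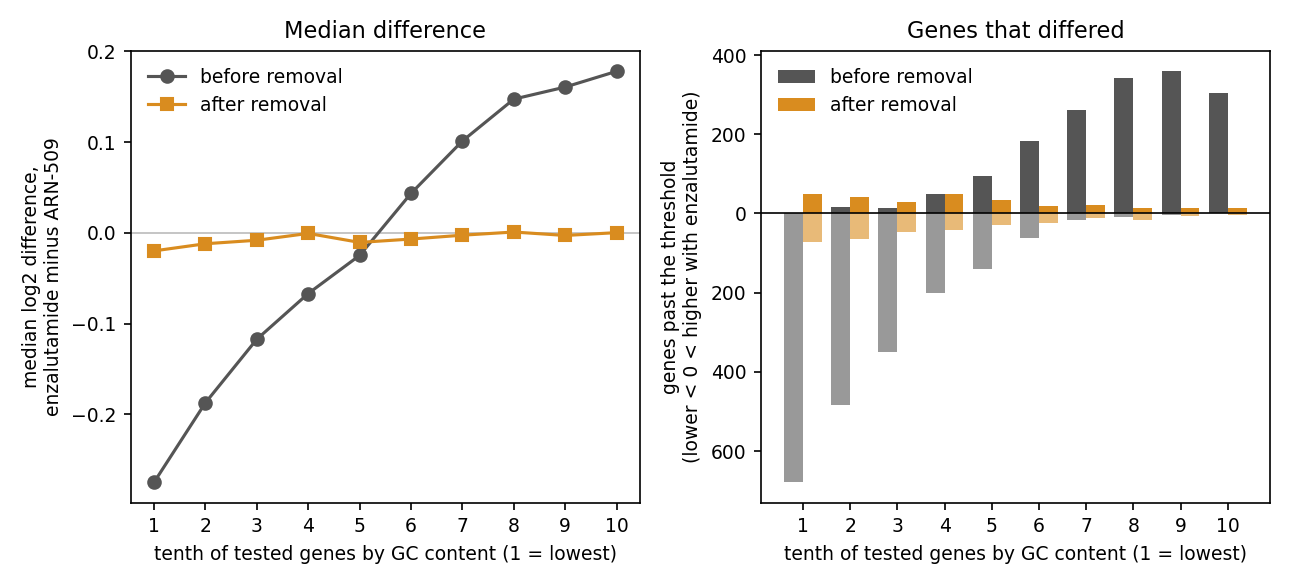
Tested genes in 10 equal groups by transcript GC content: median log2 difference between enzalutamide and ARN-509 (left) and number of genes past an adjusted p of 0.05 (right, higher with enzalutamide above the line and lower below it), before and after the trend was removed. The median rose from -0.27 in the lowest group to 0.18 in the highest before removal, and stayed between -0.02 and 0.00 after it.

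The count of 598 depends on libraries and on how the trend is removed. It was 0 when each library's GC slope was a covariate of the fit in place of the offset (997 genes at an unadjusted p below 0.05). In that fit 590 of the 598 genes kept their sign, 250 had an unadjusted p below 0.05, and the median ratio of the new difference to the first was 0.55. The count was 116 in libraries under 10000000 counts (7 enzalutamide, 9 ARN-509 and 12 vehicle). In those of at least 10000000 (6, 6 and 3) it was 0, and 1877 genes had an unadjusted p below 0.05. Both fits hold fewer libraries than the main fit, and the part of this in the lower counts was not tested. Leaving out 1 library at a time moved the count between 203, without enzalutamide tumor 5, and 1078, without vehicle tumor 8. Of the 598 genes, 188 passed in all 43 fits that left out 1 library, and 264 failed in at least 10 of them. For the genes named next, the number of failed fits is given where it was above 0.

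Set beside vehicle, more of the remaining genes had passed with ARN-509 than with enzalutamide. With the trend removed, 1996 genes (15.4%) differed between enzalutamide and vehicle and 3597 (27.7%) between ARN-509 and vehicle. Both comparisons use the same vehicle tumors, and the genes were chosen on the same drug-treated tumors, so these values are a description. Of the 282 genes at a higher level with enzalutamide than ARN-509, 41 were higher than vehicle and 8 lower with enzalutamide, whereas 0 were higher and 152 lower with ARN-509, with median differences of 0.08 and -0.19. For the 316 lower genes, enzalutamide gave 13 above and 40 below vehicle, and ARN-509 gave 153 above and 0 below, with medians of -0.10 and 0.19.

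Of the 10 genes with the smallest p after removal, 6 were lower with enzalutamide and 4 higher. CREBZF, a basic leucine zipper protein that binds the cofactor HCF-1, ran from 175 to 228 (median 203) trend-removed CPM with enzalutamide, from 231 to 319.6 (median 251) with ARN-509 and from 157 to 277 (median 231) with vehicle. Every enzalutamide tumor was below every ARN-509 tumor, which held for 1 of the 12986 genes (4.6% passed the test), and the vehicle tumors spread over both ranges. The log2 difference was -0.39 ± 0.06 (SE; adjusted p = 0.00197), with -0.19 for enzalutamide and 0.20 for ARN-509 against vehicle. BTAF1, an ATPase that strips the TATA-binding protein from DNA, ran from 84.8 to 150.1 (median 115) CPM with enzalutamide, 126 to 208 (median 159.8) with ARN-509 and 62.3 to 155 (median 119) with vehicle. The arms overlapped, but no enzalutamide tumor reached the ARN-509 median, and the enzalutamide tumors sat at the level of vehicle. Its difference was -0.49 ± 0.08 (SE; adjusted p = 0.00197).

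DICER1, the enzyme that cuts microRNA precursors, ran from 49.6 to 68.2 (median 58.7) CPM with enzalutamide, 65.2 to 92.7 (median 75.4) with ARN-509 and 41.1 to 98.3 (median 61.6) with vehicle, a difference between the drugs of -0.38 ± 0.07 (SE; adjusted p = 0.00980). All 15 ARN-509 tumors were above the enzalutamide median, and the ranges met only at their edges. CEP170, a centrosome protein, was also lower with enzalutamide (-0.33 ± 0.06, SE, adjusted p = 0.00980), as were ANKIB1, which carries ubiquitin ligase motifs (-0.29 ± 0.06), and DCUN1D5, a factor in the neddylation of cullins (-0.31 ± 0.06), both at an adjusted p of 0.00980. FMR1, an RNA-binding translation regulator, PRPF39, a U1 snRNP factor, PRKAR2B, a regulatory subunit of protein kinase A, and SLC25A36, a mitochondrial carrier, were lower too, at -0.27, -0.26, -0.31 and -0.24 on the log2 scale (adjusted p = 0.0111, 0.0117, 0.0111 and 0.0120). NAA25, an N-terminal acetyltransferase subunit that was among the 10 smallest p before removal (-0.38), stood at -0.13 after it (adjusted p = 0.0739) and no longer passed. The genes of this paragraph that passed did so in each of the 43 fits that left out 1 library.

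Chromatin remodelers and histone-modifying enzymes, which move nucleosomes or write and erase histone marks, were lower with enzalutamide in most calls before the trend was removed. Before removal 24 of 32 tested members were lower with enzalutamide and 0 higher (75% against 26.8% of all genes tested), with a median of -0.43. After removal 9 of 31 were lower and 0 higher (29% against 4.6%), with a median of -0.16 and 29 of 31 below 0, against a median of -0.01 over all genes. This list and the others given here were chosen with earlier results of these data known, so their shares are descriptions. The list has a median GC content of 42.9%. Among all 1298 tested genes with a GC content from 41.2% to 43.5%, 30 were higher and 46 lower after removal. The part of GC content in the calls of this list was not tested. TET2, an enzyme that oxidizes 5-methylcytosine, ran from 22.8 to 40.9 (median 30.2) CPM with enzalutamide, 31.3 to 55.1 (median 40.5) with ARN-509 and 23.9 to 48.5 (median 36.7) with vehicle. Only 1 of 13 enzalutamide tumors exceeded the ARN-509 median, and vehicle tumors spread over both arms. Its difference was -0.39 ± 0.09 (SE; adjusted p = 0.0120). MLL (KMT2A), which methylates lysine of histone H3, was lower, at -0.31 ± 0.07 (SE; adjusted p = 0.0111), and JHDM1D (KDM7A), a histone demethylase, at -0.26 ± 0.06 (SE; adjusted p = 0.0148). Each of these passed in all 43 fits that left out 1 library. With the GC slope as a covariate, where no gene passed, TET2, MLL and JHDM1D stood at -0.19, -0.17 and -0.26. Among spliceosome genes 1 was higher and 3 were lower of 26 (15.4% against 4.6% of all genes). SON, SRRM1 and SRSF11, which help select splice sites, were lower at -0.21, -0.22 and -0.21 (adjusted p = 0.0332, 0.0400 and 0.0432; failed in 11, 14 and 18 of 43 fits), and HNRNPC, which binds nascent transcripts, was higher at 0.27 (adjusted p = 0.0447; failed in 18).

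The 4 that were higher were OPA3, FARP1, SPATA5 and OIP5-AS1. OPA3, a mitochondrial protein named for an inherited optic atrophy, ran from 46.3 to 66.6 (median 55.9) CPM with enzalutamide, 38.8 to 58.0 (median 43.4) with ARN-509 and 43.6 to 74.3 (median 56.8) with vehicle. All 13 enzalutamide tumors were above the ARN-509 median and near the level of vehicle. Its difference was 0.35 ± 0.07 (SE; adjusted p = 0.00980), with -0.03 for enzalutamide and -0.38 for ARN-509 against vehicle. FARP1, a guanine nucleotide exchange factor, showed the same order. It ran from 112 to 159 (median 136) CPM with enzalutamide, 91.3 to 128 (median 106) with ARN-509 and 106 to 159 (median 132) with vehicle (0.34 ± 0.06, SE, adjusted p = 0.00573). SPATA5, an AAA ATPase of ribosome assembly, was higher by 0.33 ± 0.07, and OIP5-AS1, a long noncoding RNA, by 0.40 ± 0.08, both at an adjusted p of 0.00980. FARP1, SPATA5 and OIP5-AS1 had not passed before removal, at 0.06, 0.06 and 0.07, so their calls rest on the trend that was removed. With the shortest in place of the longest transcript of each gene, OIP5-AS1 stood at -0.03 (adjusted p = 0.861). OIP5-AS1 is antisense to OIP5, and the kit does not mark strand, so reads from any stretch shared by both genes cannot be told apart. How many reads this concerns was not measured.

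Chaperone and stress genes of the endoplasmic reticulum, where secreted and membrane proteins fold, were above 0 on balance both before and after removal. The median difference over 23 tested members was 0.26 before and 0.25 after, 20 of 23 were above 0 after removal, and the number that passed went from 11 higher and 0 lower (47.8% against 26.8% of all genes) to 2 and 0 (8.7% against 4.6%). Their median difference from vehicle was -0.07 with enzalutamide and -0.29 with ARN-509. PDIA3, a disulfide isomerase for glycoproteins, ran from 224 to 424 (median 279) CPM with enzalutamide, 167 to 277 (median 216) with ARN-509 and 205 to 534 (median 259) with vehicle. All 13 enzalutamide tumors were above the ARN-509 median, although the ranges overlapped. Its difference was 0.44 ± 0.11 (SE; adjusted p = 0.0192). HYOU1, a chaperone of the HSP70 class, was higher by 0.42 ± 0.12 (SE; adjusted p = 0.0367), and failed in 7 of 43 fits (adjusted p up to 0.0786, without enzalutamide tumor 9). CALR and HSP90B1, the chaperones calreticulin and GRP94, stood at 0.31 and 0.34, each at an adjusted p of 0.0503, and did not pass. With the GC slope as a covariate, where no gene passed, PDIA3, HYOU1, CALR and HSP90B1 stood at 0.17, 0.28, 0.25 and 0.16.

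Genes for energy metabolism, translation and protein breakdown were called more often than all genes before removal (26.8%). After it, respiratory chain genes were still called more often than all genes (4.6%), and the other lists were below that share. Of 26 nuclear genes of the respiratory chain, 17 were higher and 0 lower with enzalutamide before (65.4%; median 0.26) and 3 and 0 after (11.5%; median 0.11, all 26 above 0). Those 3 were NDUFS1 and NDUFB9, subunits of complex I, at 0.19 and 0.24 (adjusted p = 0.0302 and 0.0483), and ATP5A1, a subunit of ATP synthase, at 0.30 (adjusted p = 0.0377). They failed in 6, 25 and 14 of the 43 fits that left out 1 library, and NDUFS1 stood at -0.015 with the shortest transcripts (adjusted p = 0.882). Of 23 cytosolic ribosomal proteins, 20 were higher before (87%; median 0.28) and 1 after (4.3%; median 0.10). The one was RPS3, at 0.29 ± 0.08 (SE; adjusted p = 0.0254), which failed in 1 fit (adjusted p = 0.0561 without enzalutamide tumor 5). Ribosomal protein genes have many near-identical pseudogenes, and how reads were split among them is uncertain. For 20 mitochondrial ribosomal proteins the count went from 15 to 0 (median 0.30 to 0.05) and for 20 proteasome subunits from 12 to 0 (median 0.23 to 0.06), with 0 lower at either step. The smallest adjusted p in these lists were 0.0895, for MRPS7, and 0.0849, for PSMA2. Over all tested genes the median difference was 0.01 before and -0.01 after.

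**Figure D3:**
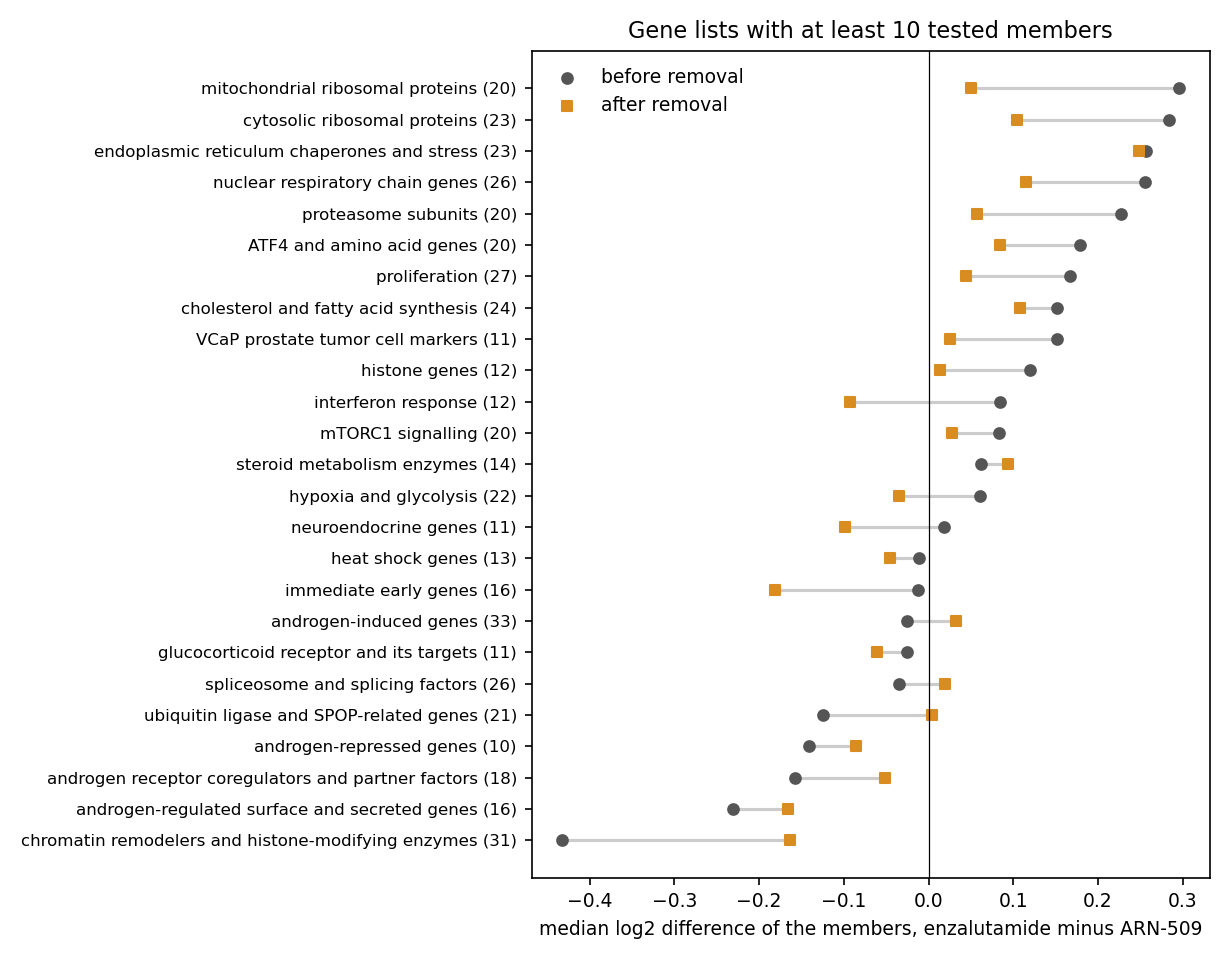
Median log2 difference, enzalutamide minus ARN-509, of the tested members of each gene list with at least 10 of them, before (circles) and after (squares) removal of the trend; the number of members tested after removal is in parentheses. Ribosomal, respiratory chain and proteasome genes moved toward 0, and chaperone and stress genes of the endoplasmic reticulum stayed near 0.25.

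Among genes that set the growth state, calls after removal were 2 of 20 for mTORC1 signalling (10%), 3 of 21 for ubiquitin ligases (14.3%) and 0 of 27 for proliferation, against 4.6% of all genes. AKT1S1 and DEPTOR, both inhibitors of mTOR complexes, differed in opposite directions (0.21, adjusted p = 0.0111, and -0.31, adjusted p = 0.0434), and DEPTOR failed in 17 of 43 fits. AKT1S1 with the trend removed ran from 81.9 to 102 (median 88.6) CPM with enzalutamide, 67.0 to 89.5 (median 77.0) with ARN-509 and 78.0 to 108 (median 84.1) with vehicle. Of the ubiquitin ligase genes, SPSB1, a substrate receptor of SOCS box ligases, was higher, and SPOPL, a paralog of SPOP, and CUL5, a cullin scaffold, were lower (-0.21 and -0.13; adjusted p = 0.0240 and 0.0387; failed in 1 and 13 of 43 fits). Of 27 proliferation genes 0 passed in either direction after removal (2 higher before), with a median of 0.04 and 21 of 27 above 0. MKI67 and TOP2A, markers of cycling cells, stood at -0.04 (95% interval -0.28 to 0.20) and -0.06 (-0.29 to 0.18), intervals that lie within 1.5-fold.

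**Figure D4:**
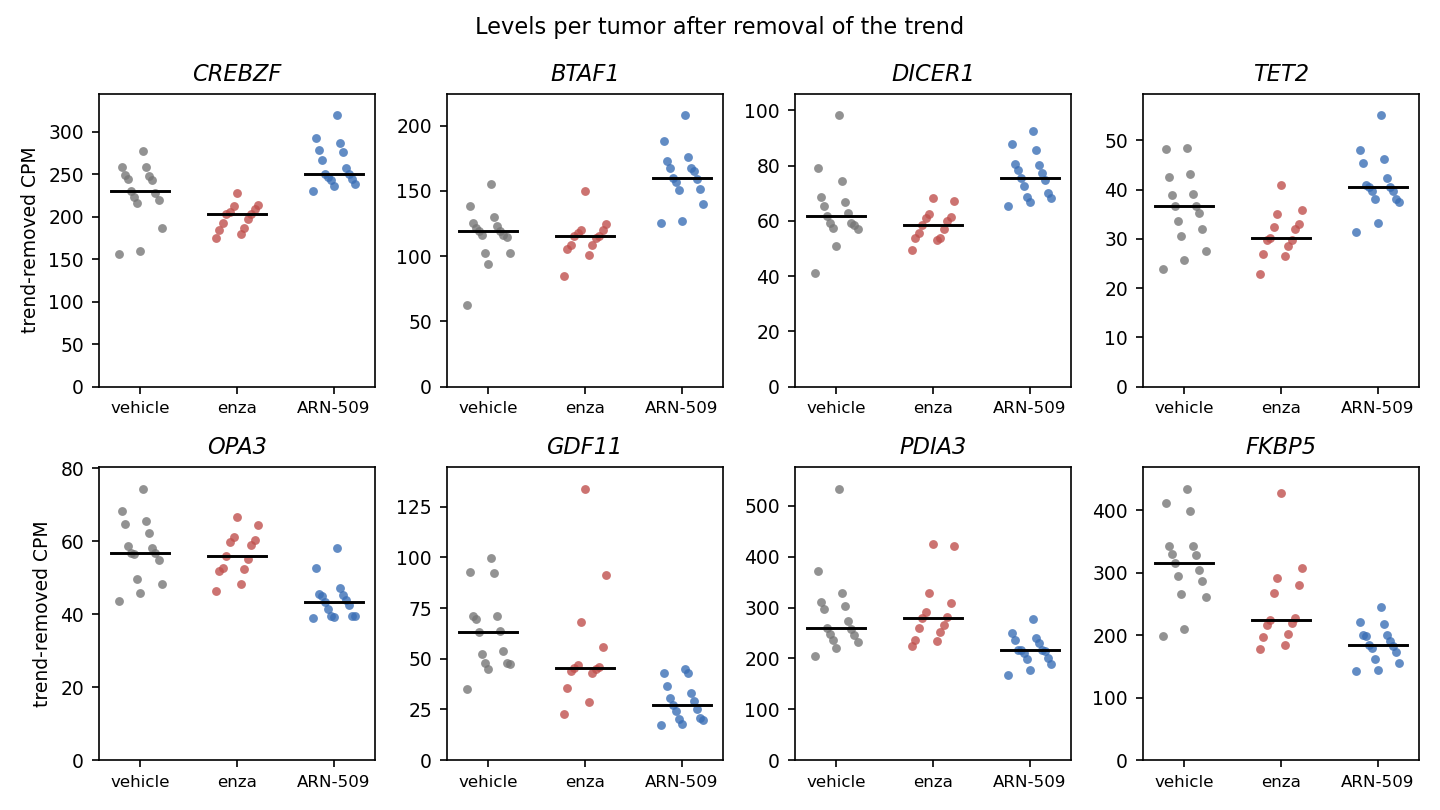
Trend-removed level (CPM, axes from 0) of 8 genes in each tumor, 1 point per tumor and a line at the arm's median (enza, enzalutamide). CREBZF, BTAF1, DICER1 and TET2 were lower with enzalutamide than with ARN-509, and OPA3, GDF11, PDIA3 and FKBP5 higher, with overlap in each gene but CREBZF.

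Some of the genes with the largest differences were scarce, and some rested on 1 tumor. GDF11, a secreted ligand of the TGF-beta family, ran from 22.6 to 134 (median 45.6) CPM with enzalutamide, 17.1 to 44.8 (median 27.2) with ARN-509 and 35.2 to 99.5 (median 63.1) with vehicle. Enzalutamide tumors spread over the range of vehicle, whereas most ARN-509 tumors lay below it. The difference was 0.88 ± 0.20 (SE; adjusted p = 0.0125), with -0.23 for enzalutamide (adjusted p = 0.478) and -1.11 for ARN-509 (adjusted p = 3.3e-05) against vehicle. SPSB1 ran from 2.94 to 8.02 (median 4.59) CPM with enzalutamide, 1.99 to 5.68 (median 2.92) with ARN-509 and 1.62 to 5.65 (median 3.50) with vehicle (0.69 ± 0.16, SE, adjusted p = 0.0125). Here the ARN-509 tumors sat with vehicle and the enzalutamide tumors above both (0.53 for enzalutamide, adjusted p = 0.0169, and -0.16 for ARN-509, adjusted p = 0.481). DISP2, of the Dispatched family of membrane transporters, was higher by 0.58 ± 0.13 (SE; adjusted p = 0.0125). NNAT, an imprinted gene for a small membrane protein, was lower, at -1.04 ± 0.25 (SE; adjusted p = 0.0169) and ran from 1.34 to 5.18 (median 2.02) CPM with enzalutamide, 2.07 to 10.5 (median 3.78) with ARN-509 and 1.63 to 8.17 (median 4.06) with vehicle. GDF11, SPSB1, DISP2 and NNAT passed in each of the 43 fits that left out 1 library.

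FOXJ1, the regulator of motile cilia, and CCDC39, a cilium assembly factor, differed in opposite directions. FOXJ1 was higher with enzalutamide by 1.21 ± 0.35 (SE; adjusted p = 0.0397), from 0.759 to 17.7 (median 4.67) CPM against 0.805 to 4.32 (median 2.26) with ARN-509, and failed in 14 of 43 fits (adjusted p = 0.129 without enzalutamide tumor 5). CCDC39 was lower, at -0.72 ± 0.17 (SE; adjusted p = 0.0140) and failed in 0. S100A6, a calcium-binding protein, had the lowest difference, -1.35 ± 0.39 (SE; adjusted p = 0.0377). It ran from 1.47 to 4.53 (median 3.56) CPM with enzalutamide and from 1.84 to 48.2 (median 3.32) with ARN-509, and the medians were nearly equal. The high value was that of ARN-509 tumor 1, without which the difference was -0.48 (adjusted p = 0.274), and S100A6 failed in 7 of 43 fits in all. ALB was likewise decided by enzalutamide tumor 2. Its difference of 2.77 ± 0.63 (SE; adjusted p = 0.0131) became -0.06 without that tumor (adjusted p = 0.866), and the arm medians were 8.11 and 7.83 CPM. PFN1P2 (-0.94), FOXO3B (-0.67) and ANKRD36B (-0.69) have near-identical copies elsewhere in the genome, and LUST (-0.93) is antisense to RBM5, so their values are uncertain (failed in 15, 2, 21 and 5 of 43 fits).

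Androgen receptor signalling is the target of both drugs. Of 33 androgen-induced genes tested, 1 was higher and 0 lower after removal (3%, near the 4.6% of all genes; median 0.03), and 3 and 2 before it (15.2% against 26.8%), and of 10 androgen-repressed genes 0 passed at either step (median -0.09, 2 of 10 above 0). The gene that passed was FKBP5, a co-chaperone of steroid receptors induced by androgen and by glucocorticoid. It ran from 178 to 428 (median 224) CPM with enzalutamide, 142 to 245 (median 185) with ARN-509 and 198 to 435 (median 316) with vehicle, an order in which both drug arms lay low and ARN-509 lower. The difference was 0.41 ± 0.11 (SE; adjusted p = 0.0290), with -0.34 for enzalutamide (adjusted p = 0.0287) and -0.75 for ARN-509 (adjusted p = 9.2e-07) against vehicle. It had not passed before removal (0.15, adjusted p = 0.297), and it failed in 7 of 43 fits, with 0.32 and an adjusted p of 0.0815 without enzalutamide tumor 5.

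The secreted kallikreins did not pass between the drugs after removal. KLK3 ran from 128 to 646 (median 225) CPM with enzalutamide, 162 to 331 (median 222) with ARN-509 and 200.2 to 743 (median 286) with vehicle, with a difference of 0.20 (95% interval -0.18 to 0.58; adjusted p = 0.559). KLK2 passed before removal at 0.25 (adjusted p = 0.0162) and stood at 0.16 after it (0.02 to 0.30; adjusted p = 0.147). KLK2 and KLK3 are close in sequence, and reads could be shared. The fusion pair gave 0.12 for TMPRSS2 (-0.22 to 0.47) and 0.41 for ERG (0.15 to 0.68; adjusted p = 0.0556). ERG, the oncogenic transcription factor driven by the fusion, ran from 474 to 1007 (median 592) CPM with enzalutamide and 358 to 763 (median 488) with ARN-509, and did not pass. NR3C1, the glucocorticoid receptor, stood at -0.00 (-0.37 to 0.37). Steroid metabolism enzymes gave 0 of 14 in either direction after removal, and 9 genes linked to ERG gave 0.

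Genes with a large mean response to the drugs were then compared for the size of the response to each. The shared response was taken as the genes whose mean over both drug arms differed from vehicle by at least 1 on the log2 scale at an adjusted p of 0.05 with the trend removed. It held 165 genes, 72 that rose and 93 that fell. A gene can enter through 1 arm: 156 passed against vehicle with both drugs, in the same direction, 6 did not pass with enzalutamide and 3 did not with ARN-509. With near-equal arms of equal spread, this mean and the difference between the drugs are close to independent, which does not hold for a gene carried by 1 tumor. Of the 165, 4 differed between the drugs, against 4.6% of all genes tested. For 134 of the 165 the 95% interval excluded differences beyond 2-fold, and for 47 those beyond 1.5-fold. Over all genes tested these counts were 12826 and 11738 of 12986. Genes of the shared response thus met these limits less often, and the few calls among them do not show equal responses. Among the 72 that rose the median difference was -0.20, with 54 below 0. Their median response was 1.22 with enzalutamide and 1.35 with ARN-509. Among the 93 that fell it was -0.09, with 58 below 0, and the median responses were -1.39 and -1.40. Over all genes the median was -0.01, with 6716 of 12986 below 0.

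None of the 10 genes with the largest shared responses passed between the drugs. STEAP4, a metalloreductase induced by androgen, fell from 5.44 to 115 (median 82.7) CPM with vehicle to 1.20 to 9.09 (median 3.04) with enzalutamide and 0.670 to 12.4 (median 2.84) with ARN-509. DPP4, a cell-surface peptidase, fell from 3.42 to 118 (median 35.8) to 0.522 to 3.89 (median 1.66) and 0.858 to 5.19 (median 1.34). NOV (CCN3), a matricellular protein repressed by androgen, rose from 0.268 to 4.72 (median 1.59) to 6.59 to 19.6 (median 12.4) and 8.25 to 22.2 (median 15.8). The drug arms overlapped for each of these, but for NOV only 1 of 13 enzalutamide tumors was above the ARN-509 median and 12 of 15 ARN-509 tumors were above the enzalutamide median. The differences were -0.17 (95% interval -1.13 to 0.78), -0.28 (-1.39 to 0.83) and -0.36 (-0.71 to -0.01; adjusted p = 0.204), and the intervals of STEAP4 and DPP4 reach beyond 2-fold. TRPM8, a cold-sensing channel, responded by -2.50 with enzalutamide and -2.13 with ARN-509, a difference of -0.38 (-0.91 to 0.15). LUZP2, a leucine zipper gene, passed between the drugs before removal (-0.97, adjusted p = 0.0381) and not after (-0.70, adjusted p = 0.232).

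The 4 genes that differed in size were TGFB2, GPR149, GUCA2A and ALB, of which TGFB2 and GUCA2A passed against vehicle with both drugs. TGFB2, a ligand of the TGF-beta family, rose more with ARN-509. It ran from 0 to 1.49 (median 0.969) CPM with vehicle to 0.668 to 2.92 (median 1.31) with enzalutamide and 1.54 to 3.91 (median 2.75) with ARN-509, and all 15 ARN-509 tumors were above the enzalutamide median. The difference was -0.71 ± 0.19 (SE; adjusted p = 0.0247), with an adjusted p of 0.0565 without enzalutamide tumor 5. GPR149, an orphan receptor, rose with ARN-509 (1.69 against vehicle, adjusted p = 1.7e-04) and stood at 0.67 with enzalutamide (adjusted p = 0.220). Its difference of -1.02 ± 0.31 (SE; adjusted p = 0.0478) failed in 27 of 43 fits and stood at -0.73 without ARN-509 tumor 11 (adjusted p = 0.111). GUCA2A, which encodes the peptide guanylin, fell more with ARN-509. It ran from 5.73 to 15.4 (median 11.4) CPM with vehicle to 3.50 to 9.28 (median 6.64) with enzalutamide and 2.81 to 7.26 (median 4.22) with ARN-509 (0.59 ± 0.14, SE, adjusted p = 0.0188), and passed in each of the 43 fits. ALB, at 0.56 with ARN-509 (adjusted p = 0.58), was the value of enzalutamide tumor 2 described above. Next in order of p, GUCY1A2, a subunit of guanylate cyclase, and TSPAN7, a tetraspanin, stood at -0.63 and -0.63 (adjusted p = 0.0754 and 0.0936) and did not pass. The number of genes that differed was 17 of 175 with the trend left in, 11 of 193 with limma, 1 of 164 with DESeq2 and 0 of 167 with the GC slope as a covariate.

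**Figure D5:**
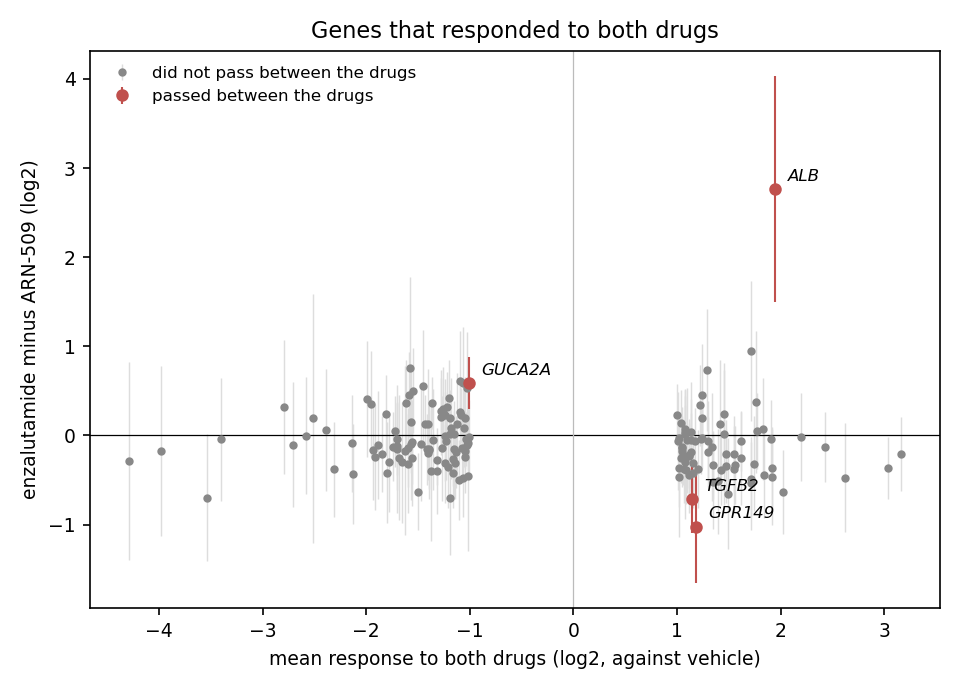
Difference between the drugs (log2, with its 95% interval) against the mean response to both (log2, against vehicle) for the 165 genes of the shared response, with the trend removed. The 4 genes that passed between the drugs are named, and ALB rests on 1 tumor.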

How the data were processed

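RNA was sequenced from 44 xenograft tumors from libraries that carry no strand information, since they were made with the TruSeq RNA v2 kit per the labels' protocols. The authors deposited raw counts per gene symbol (23368 symbols). The submitters' processing notes name hg19 and the tools TopHat2 2.1.0, HTSeq 0.6.1, Picard 1.77 and bcl2fastq 1.8.4. Their settings, the annotation and how mouse reads were handled are not given in the sources used, so reads of host cells may stand in counts of human genes they resemble. Nothing in the labels pairs tumors across arms, and each library was taken as 1 tumor, so p-values measure the spread between these tumors. Any 2 libraries of a drug arm differed beyond sampling noise (chi-square over its degrees of freedom at least 3.92), so each library was counted once.

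Counts of 43 libraries were filtered by filterByExpr, TMM-scaled and tested with the robust quasi-likelihood fit of edgeR 4.0.16 under R 4.3.3, with arm as the term. Per library, centred log2 CPM (prior count 2) was fitted with natural splines (5 df each) in transcript GC content and log2 length, and the fit entered the offsets. Both values came from the longest GENCODE v29 transcript, matched by symbol (20194 directly, 1537 by older names, 1637 unmatched); 534 tested genes had none. A trend-removed CPM is the TMM-scaled CPM divided by the fitted trend. Intervals are 95%. The test was checked on simulated counts. Alternatives are in the closing section; DESeq2 1.42.0 and limma 3.58.1 were among them. Named genes are the 10 highest, 10 lowest and 10 smallest p between the drugs, 10 by p and 10 by size of the shared response, up to 4 per list, 10 by p before removal and 15 of androgen signalling and proliferation. Members and the 36 lists were chosen with earlier results of these data known. Lists with 0 tested members were the endothelial, erythrocyte and mitochondrially encoded genes. Some genes and sequences that these rules name are not reported here.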

Additional observations from a re-analysis of the deposited data

How the results depend on the processing

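With the counts as scaled, 28 fits that each left out 1 drug-treated library gave 2680 to 4164 genes; the count was 5707 with limma voom quality weights and 0 in libraries of at least 10000000 counts (2657 genes at an unadjusted p below 0.05). It stayed within 1.5 times of 3623 under the other alternatives run, 3943 with DESeq2 among them. With the trend removed, the 598 genes became 1360 with only the drug arms in the fit, 260 with enzalutamide 4 added, 2093 with limma, 346 in thinned libraries, 116 in libraries under 10000000 counts and 0 in deeper ones, 1220 with the trend in GC content only, 2374 with length only, 1636 with the shortest transcripts and 0 with the GC slope as a covariate; DESeq2 gave 885. Leaving out 1 library gave 203 to 1078. The libraries that moved the count by over 1.5 times were vehicle 8 (1078), enzalutamide 10 (964), 12 (377), 6 (343), 1 (332), 9 (306), 7 (289), 11 (283) and 5 (203), and ARN-509 8 (376), 9 (306), 14 (296) and 6 (238). Scaling by library totals moved the split of higher and lower genes to 1202 and 2263 before removal and to 181 and 411 after it. The 4 genes of the shared response became 9 with length only, 7 with the shortest transcripts, 0 with the covariate, 13 at a threshold of 0.58 in place of 1, 17 with the trend left in, 11 with limma, 1 with DESeq2, 1 in thinned libraries, 2 in libraries under 10000000 counts and 0 in deeper ones. Leaving out 1 library gave 2 to 5, with 2 without vehicle 3, 5 or 14, enzalutamide 2, 3, 5 or 8, or ARN-509 4. The difference in GC slope ranged from 0.142 to 0.178 without 1 library and passed throughout, also with enzalutamide 4, thinned libraries or a stricter filter.

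Equal sample numbers did not pair the tumors: over 13 pairs, deviations from the arm means correlated by -0.20 to 0.30 (median 0.02; 3 over 0.1), and no tumor correlated best with its own number. With the number as a replicate block the counts were 3290 before removal, 562 after it and 2 in the shared response.

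Of 69 named genes, 48 passed with the trend removed. Over the alternatives other than leaving out 1 library, 199 of 1372 values fell short of the threshold, 56 newly passed it and 4 changed sign; with 1 library left out these were 255, 38 and 1 of 2967. The changes of sign were OIP5-AS1 (-0.026) and NDUFS1 (-0.015) with the shortest transcripts, SON (0.041) with enzalutamide 4 added, and ALB with DESeq2 (-0.069) and without enzalutamide 2 (-0.055, against up to 2.87 without another library). Where no value above shows the cause, the cause was not tested. The fits with libraries split at 10000000 counts, with the trend from genes that did not respond or with a spline in mean level, with genes that have a GC value only, without 1 vehicle library, and for the shared response those with other scalings, filters, tests and depths, were chosen after seeing the data. Depth limits the comparison: in the shallowest library, with 3377450 counts, a gene at 1 CPM is expected to give about 3 counts.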

Other observations

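Other groups of genes gave no call in either direction once the trend was removed, so their values are given as levels of the difference only. Immediate early genes, which respond within minutes to growth signals and handling, had a median difference of -0.18 over 16 tested members (13 below 0), with -0.05 for enzalutamide and 0.16 for ARN-509 against vehicle. Cholesterol and fatty acid synthesis genes had a median of 0.11 over 24 (20 above 0), with FASN, the fatty acid synthase, at 0.22 (adjusted p = 0.097) and SREBF1, its transcriptional activator, at 0.23 (adjusted p = 0.1). ATF4 and amino acid genes stood at 0.08 over 20, interferon genes at -0.09 over 12, hypoxia and glycolysis genes at -0.04 over 22 and neuroendocrine genes at -0.10 over 11. Heat shock genes stood at -0.05 over 13 and histone genes at 0.01 over 12. Of 15 genes for drug metabolism and transport 3 were detected well enough to be tested, and of 15 GABA-A receptor subunits, which form inhibitory ion channels of the brain, 1 was.

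Surface and secreted genes regulated by androgen had a median of -0.17 over 16 (3 above 0), of which 2 were lower before removal and 0 after.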
